A study of Mus musculus with 6 samples.

Results

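Genes that lay well above every saline mouse in every ketamine mouse were collected from RNA Seq of the prelimbic cortex (PLc). A gene was taken when its normalized count averaged at least 50 over the 6 mice and its lowest value among the ketamine mice was at least 2 times its highest value among the saline mice. A normalized count is the number of reads of a gene divided by a size factor for its library. Of 37620 genes listed, 13521 had such a mean, and 39 of them (0.288%) met the limit. Among these 39, the symbols Cacng5, Cdhr1, Dlx1, Dlx2, Dlx5, Dlx6os1, Eomes, Frmd7, Htr1d, Penk, Prokr2, Tacr1, Tbx21 and Vipr2 were set aside by name, which left the 25 genes described here. They were selected on the ketamine and saline values of these same 6 mice, so the size of their differences is a description and was given no test. The mirrored limit, with the lowest saline mouse at least 2 times the highest ketamine mouse, was met by 3 genes (0.0222%), namely Lct, Chrnb3 and Krt80.

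The mice were of the C57Bl/6 strain and 9 weeks old, and the animals of the study were male. Of the 6 mice, 3 received ketamine, an NMDA receptor antagonist, at 30 mg/kg i.p. once a day for 5 days, and 3 received saline vehicle in the same way. The PLc, which belongs to the medial prefrontal cortex, was dissected 2 days after the last injection, and 1 library was made per mouse. Mice 1, 6 and 10 received saline, and mice 3, 5 and 9 received ketamine. In dissected tissue, a change in the number of cells of a type and a change in the RNA of each cell cannot be told apart.

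The libraries held between 26273436 and 32643726 recovered reads, and single libraries stood apart in the marker genes of some cell types. A marker score is the mean log2(normalized count + 1) of a list of genes after subtraction of the saline mean, with all 39 genes that met the limit left out of every list. Genes of cortical excitatory neurons, the labelled tissue, were found in every mouse, and their summed normalized counts ranged from 205245 to 270565 with saline and from 130355 to 206823 with ketamine. Markers of striatal medium spiny neurons scored 2.84 in ketamine mouse 3 and 2.0 in mouse 5, while mouse 9 scored -0.13. Saline mouse 10 scored 1.85 for oligodendrocyte genes, against -0.77 and -1.08 in saline mice 1 and 6. Blood genes scored 2.31 in ketamine mouse 9, against values between -0.56 and 0.25 in the other mice.

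The 25 genes do not form a single pathway. Lgr5 and Lgr6 encode receptors for R-spondins, which strengthen Wnt signalling, while Nmbr and Oxtr encode receptors for the peptides neuromedin B and oxytocin. Sp8 and Sp9 encode zinc finger transcription factors of the ventral forebrain, where the neurons of the striatum and the interneurons of the olfactory bulb are born, and Zic1 encodes a zinc finger factor known from the septum and cerebellum. The striatum, the septum and the olfactory areas lie near the medial prefrontal cortex in the mouse brain.

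Promoter sequences are shown for 3 of the genes because the members were selected for moving together between the groups. Slc35d3 had the widest gap between the groups, Sp9 encodes a transcription factor, and Oxtr was among the most even within each group. RefSeq promoters of build GRCm38.p6, from 250 bases before to 50 bases after the start, were found for 16 of the 25 genes. Only the first listed start of each gene was used, and other starts were not searched. No promoter was matched for 4930426D05Rik, Abi3bp, Adamts19, Gpr149, Klhl14, Lgr5, Ly6g6e, Ndst4 and Slco5a1. The capitals mark the GC box, spelled GGGCGG and searched on both strands, so that it reads CCGCCC where it lies on the other strand.
Slc35d3 (chr10:19851410-19851709, minus strand): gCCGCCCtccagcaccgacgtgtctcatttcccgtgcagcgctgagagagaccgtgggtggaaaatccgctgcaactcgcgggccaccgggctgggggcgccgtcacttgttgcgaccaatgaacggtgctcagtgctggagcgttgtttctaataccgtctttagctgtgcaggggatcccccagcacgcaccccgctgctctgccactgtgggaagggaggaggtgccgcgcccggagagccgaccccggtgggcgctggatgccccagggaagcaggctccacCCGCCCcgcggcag
Sp9 (chr2:73271676-73271975, plus strand): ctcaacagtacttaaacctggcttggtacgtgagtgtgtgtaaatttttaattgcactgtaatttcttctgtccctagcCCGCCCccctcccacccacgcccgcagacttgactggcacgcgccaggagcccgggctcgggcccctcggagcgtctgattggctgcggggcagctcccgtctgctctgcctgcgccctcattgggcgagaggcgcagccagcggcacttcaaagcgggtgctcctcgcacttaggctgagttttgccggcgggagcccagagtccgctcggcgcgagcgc
Oxtr (chr6:112489776-112490075, minus strand): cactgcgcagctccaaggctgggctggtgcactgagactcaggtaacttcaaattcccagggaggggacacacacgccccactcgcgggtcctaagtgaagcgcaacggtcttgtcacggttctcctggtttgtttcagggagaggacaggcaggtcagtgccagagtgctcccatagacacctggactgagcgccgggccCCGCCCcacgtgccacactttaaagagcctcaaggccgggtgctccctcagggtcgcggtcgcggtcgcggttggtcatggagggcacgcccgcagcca

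The GC box, which transcription factors of the Sp family bind, was present in 10 of the 16 promoters (62.5%) and in 35.9% of all 27025 RefSeq promoters of the same length. These 16 promoters were also rich in G and C, with a median of 60.8% against 52.7% for all promoters. The 10 genes with a GC box were Slc35d3, Nmbr, Scgn, Shisa3, Syt6, Ppm1j, Zic1, Lgr6, Oxtr and Sp9. The E-box CAGCTG was found in the promoters of Kcna5, Syt6 and Lgr6, which is 18.8% of the 16 and compares with 16.1% of all promoters. The AP-1 motif TGANTCA was present in Avp and Scgn (12.5%, against 7.93% of all), the TATA box TATAAA in Sp8 and Pcp4l1 (12.5%, against 14.2%), and the homeobox core TAATTA in Syt6 (6.25%, against 5.31%). No match to the cAMP response element TGACGTCA or to the T-box motif AGGTGTGA was found in these 16 windows, and 1.88% and 1.27% of all promoters hold them. Each motif was searched on both strands, and a match describes letters in a window and not a bound site.

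The 25 genes had between 2.03 and 10.6 times as many normalized counts in their lowest ketamine mouse as in their highest saline mouse, with a median of 2.84. The gap was at least 3-fold for 11 genes, at least 5-fold for 5 genes and at least 10-fold for Slc35d3 alone. Without ketamine mouse 9, 20 of the 25 genes still met both limits, and without saline mouse 10 all 25 did, among 63 and 87 genes in all. Leaving out a mouse cannot take a gene under the 2-fold limit, so only the mean of 50 could remove genes here. The mean of the ketamine mice was under 3 times the mean of the saline mice for 1 gene, from 3 to under 10 times for 13 genes and 10 or more times for 11 genes. Many of these genes were close to silent in the saline mice. The saline mean was under 20 normalized counts for 8 genes and 100 or more for 7 genes. Over all 13521 genes, the ketamine mice lay wholly above the saline mice for 718 (5.31%) and wholly below for 603 (4.46%).

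**Figure D1:**
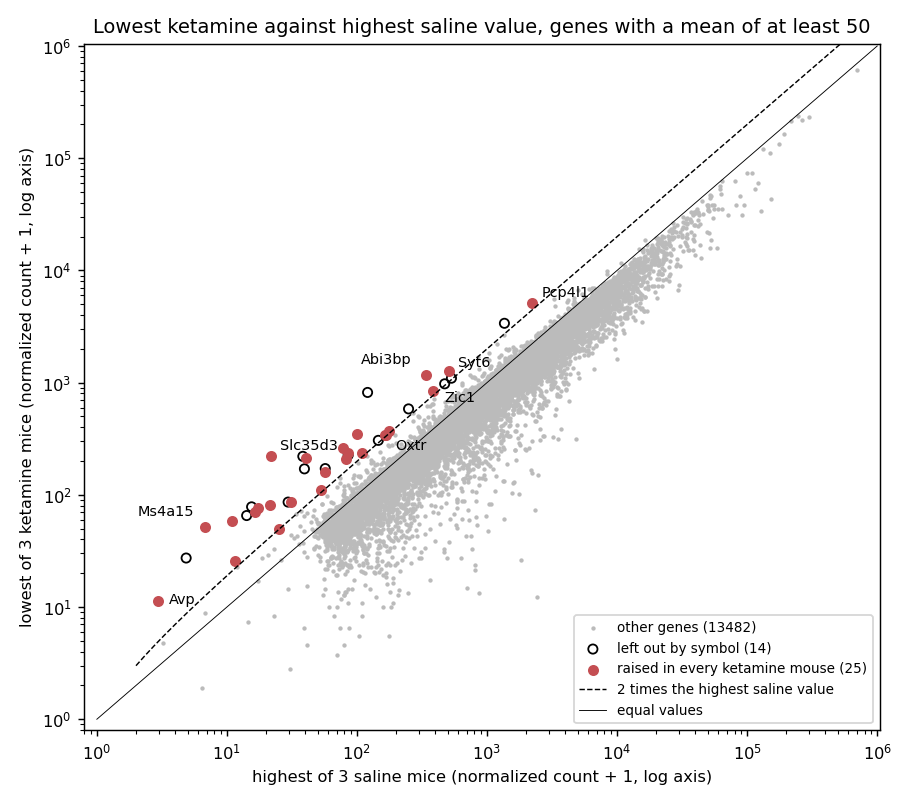
Each point is a gene that averaged at least 50 normalized counts, with its highest saline mouse on the x axis and its lowest ketamine mouse on the y axis (normalized count + 1, log axes); the dashed line is the 2-fold limit. The 25 genes in red lie above the dashed line, from Avp at the lower left to Pcp4l1 at the upper right, and the 14 genes set aside by symbol are open circles.

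Levels of different genes were compared in RPKM, a unit that corrects reads for the exon length of a gene and the depth of its library. On this scale, 20 of the 25 genes had a mean under 1 in saline mice, and 1 gene, Slco5a1, did so in ketamine mice. Pcp4l1 was by far the most abundant, at 34.5 ± 12.7 RPKM with saline and 158.6 ± 51.6 RPKM with ketamine (SD, n = 3 each). Syt6, Zic1, Abi3bp and Oxtr followed in saline mice, at 2.42, 2.08, 1.59 and 1.03 RPKM. The lowest level in saline mice was that of Adamts19, at 0.0513 ± 0.02 RPKM (SD, n = 3), which became 1.28 ± 1.05 in ketamine mice.

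The values of each gene are given in normalized counts, for saline mice 1, 6 and 10 and then for ketamine mice 3, 5 and 9. In the plot of the 25 genes by mouse, saline and ketamine mice form separate groups on every line, as the limit required, while the distance between the ketamine mice varied widely from gene to gene.

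**Figure D2:**
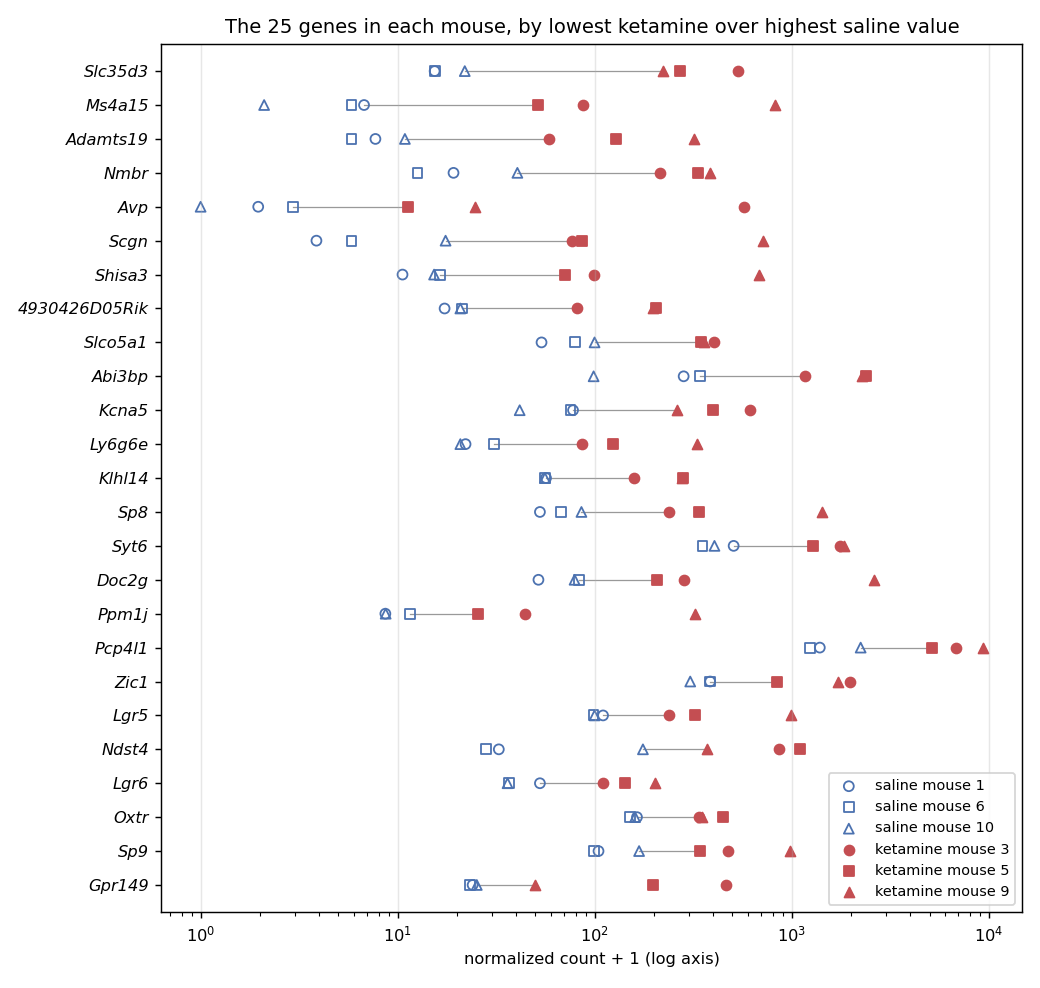
Each line is 1 of the 25 genes, ordered by the ratio of the lowest ketamine to the highest saline value, and each symbol is 1 mouse (normalized count + 1, log axis); open blue symbols are saline mice, filled red symbols ketamine mice, and the grey bar spans the gap between the groups. The gap is widest for Slc35d3 and narrowest for Gpr149, and the ketamine mice lie close together for Slco5a1 and Oxtr and far apart for Avp and Ms4a15.

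Among the G-protein-coupled receptors, Nmbr (ENSMUSG00000019865, mm9 chromosome 10 from 14480027 to 14490389, plus strand) encodes the receptor for neuromedin B, a peptide of the bombesin family. It had 18.2, 11.6 and 39.5 in saline mice and 212.4, 333.0 and 383.4 in ketamine mice. The 3 ketamine mice lay within 1.81-fold of each other, and their mean was 13.4 times that of the saline mice. Oxtr (ENSMUSG00000049112, mm9 chromosome 6 from 112423678 to 112440884, minus strand) encodes the oxytocin receptor. It had 162.8, 150.6 and 159.2 normalized counts in saline mice and 337.7, 446.9 and 349.9 in ketamine mice. Both groups were even, at 157.5 ± 6.31 with saline and 378.1 ± 59.8 with ketamine (SD, n = 3 each), and its 2.4-fold difference in means was the smallest of the 25 genes.
Lgr5, an R-spondin receptor known as a marker of stem cells in several epithelia and expressed by some neurons, had 109.2, 97.5 and 98.8 normalized counts in saline mice and 236.9, 319.9 and 992.5 in ketamine mice. Its relative Lgr6 had 51.7, 35.7 and 35.1 in saline mice and 108.7, 141.1 and 201.2 in ketamine mice. Both receptors were highest in ketamine mouse 9 and lowest in ketamine mouse 3. Gpr149, an orphan receptor, had 23, 22.2 and 24.2 normalized counts in saline mice and 464.0, 195.7 and 49 in ketamine mice. Its saline mice were nearly equal, while ketamine mice 3 and 9 differed 9.48-fold.
Of the 167 genes of the receptor family with a mean of at least 50, 9 met the 2-fold limit (5.39%, beside 0.288% of all genes). Of these 9, 5 are among the 25 genes and 4 among those set aside by symbol. The ketamine mice lay wholly above the saline mice for 23 receptor genes (13.8%, beside 5.31% of all genes). This count includes the 9, so it rests partly on the values used for selection. The share was also raised in other families, at 12.7% for extracellular matrix genes and 12.7% for secreted growth factors or antagonists. The lowest share of any family examined was 5.56%, for axon guidance genes.

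The ligands of these receptors were examined after the receptors' values had been seen. Nmb, which encodes neuromedin B and is also a marker of olfactory bulb mitral and tufted cells, had 35.4, 54 and 73.6 normalized counts in saline mice and 79.3, 71.5 and 562.9 in ketamine mice, so that the groups overlapped and ketamine mouse 9 stood apart. Oxt, which encodes oxytocin, had 1.92, 0 and 2.2 in saline mice and 909.4, 3.76 and 7.25 in ketamine mice. Ketamine mouse 3 alone carried many reads of Oxt, as it did of Avp. Each of the R-spondin genes Rspo1, Rspo2, Rspo3 and Rspo4 overlapped between the groups. Rspo1 had 142.7, 127.4 and 191.1 against 150.8, 89.4 and 89.7, and Rspo3 had 369.8, 356.1 and 257.0 against 268.2, 409.2 and 534.8. Rspo2 had 869.8, 832.9 and 222.9 against 192.8, 326.4 and 219.4. Its saline mice 1 and 6 lay above every ketamine mouse, and it overlapped through saline mouse 10 alone. Rspo4 was sparse, at 3.83, 5.79 and 1.1 against 21.5, 3.76 and 0.91. Lgr4, the third receptor of the R-spondin group, had 922.5, 873.4 and 834.6 against 920.1, 967.1 and 1116.7, and its groups also overlapped.

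Among the transcription factors, Sp8 (ENSMUSG00000048562, mm9 chromosome 12 from 120084802 to 120091051, plus strand) marks olfactory bulb interneurons and some cortical interneurons. It had 51.7, 66.6 and 84.6 in saline mice and 236.9, 335.9 and 1423.1 in ketamine mice, with mouse 9 at 4.97 times the mean of mice 3 and 5. Sp9 (ENSMUSG00000068859, mm9 chromosome 2 from 73109982 to 73122763, plus strand) acts in interneurons and in striatal neurons. It had 103.5, 98.4 and 166.9 normalized counts in saline mice and 471.8, 340.6 and 978.0 in ketamine mice, and it shares 270 exon bases with Cir1 on the other strand, which averaged 1152.9. Zic1 (ENSMUSG00000032368, mm9 chromosome 9 from 91252896 to 91260648, minus strand), a marker in the septum and thalamus lists, had 384.1, 382.2 and 304.2 in saline mice and 1984.2, 841.0 and 1716.8 in ketamine mice. For Zic1 it was ketamine mouse 5, and not mouse 3 or 9, that lay nearest to the saline mice.
The family of homeobox, T-box, Zic, Sp, LIM and forkhead factors held 91 genes with a mean of at least 50. Of these, 9 met the limit (9.89%, beside 0.288% of all genes), 3 among the 25 genes and 6 set aside by symbol. In this family 27 genes (29.7%, beside 5.31% of all genes) had ketamine mice wholly above saline mice, the highest share of the 11 families examined. The 27 include the 9 that met the limit, so this share rests partly on the values used for selection.

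Calcium-binding and vesicle proteins formed another group. Scgn encodes secretagogin, an EF-hand calcium sensor found in olfactory bulb interneurons, and had 2.87, 4.83 and 16.5 normalized counts in saline mice and 75.4, 84.7 and 713.4 in ketamine mice. Doc2g, a double C2-domain gene used as a marker of mitral and tufted cells, had 50.8, 82 and 78 in saline mice and 282.9, 206.0 and 2624.1 in ketamine mice. Ketamine mouse 9 thus reached 8.91 times the mean of mice 3 and 5 for Scgn and 10.7 times for Doc2g. Doc2g shares 1918 exon bases with Nudt8 on the same strand, which averaged 198.8 normalized counts. The count of Doc2g therefore depends on whether reads of the shared bases were kept or dropped, which is not known. Syt6, a synaptotagmin known as a marker of cortical layer 6 corticothalamic neurons, had 505.8, 351.3 and 404.1 in saline mice and 1762.9, 1276.6 and 1845.5 in ketamine mice. It is the only one of the 25 genes on the list of cortical excitatory neurons, of which 4 of the other 19 genes tested were higher and 15 lower in ketamine mice, with a median log2 change of -0.47. In the list of cortical layer 6b, which does not hold Syt6, 6 of 7 genes were higher and 1 lower, with a median of 0.57. The layer 6b list scored 1.27, 0.55 and 1.09 in the ketamine mice, whereas saline mice ranged from -0.38 to 0.72, so that its scores overlapped.
Pcp4l1 (ENSMUSG00000038370, mm9 chromosome 1 from 173103393 to 173126399, minus strand) encodes a relative of the calmodulin-binding peptide PCP4. It had 1386.1, 1236.3 and 2234.7 normalized counts in saline mice and 6771.8, 5137.5 and 9371.6 in ketamine mice. The spread within each group was alike, at 1.81-fold in saline and 1.82-fold in ketamine mice, and the means differed 4.38-fold.

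Among channels and transporters, Slc35d3 (ENSMUSG00000050473, mm9 chromosome 10 from 19567723 to 19571265, minus strand) belongs to the nucleotide sugar transporter family and is known for its role in platelet dense granules and in the trafficking of the D1 dopamine receptor in striatal neurons. It had 14.4, 14.5 and 20.9 normalized counts in saline mice and 530.5, 269.1 and 222.1 in ketamine mice. Its lowest ketamine mouse had 10.6 times the counts of its highest saline mouse, the widest gap of all, and the means were 16.6 ± 3.72 and 340.6 ± 166.2 (SD, n = 3 each). Kcna5, which encodes the voltage-gated potassium channel Kv1.5, had 76.6, 74.3 and 40.6 in saline mice and 615.7, 396.1 and 259.2 in ketamine mice. Slc35d3, Kcna5 and Gpr149 were the 3 genes that descended from ketamine mouse 3 to mouse 5 to mouse 9. This order, which the striatal score also had, was found for 3 of the 25 genes (12%), for 18% of all other genes with a mean of at least 50 and for 20.6% of the 679 others with ketamine wholly above saline.
Slco5a1, a member of the organic anion transporter family, had 52.7, 78.2 and 98.8 normalized counts in saline mice and 402.3, 346.2 and 356.2 in ketamine mice. The ketamine mice differed by no more than 1.16-fold, the closest values of the 25 genes, while the saline mice spanned 1.88-fold. Of 254 solute carrier genes with a mean of at least 50, 18 (7.09%) had ketamine mice wholly above saline mice, and of 125 genes of cation channels 10 (8%) did. The share over all genes with such a mean was 5.31%, so both lay near it.

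Genes of the matrix, of heparan sulphate and of growth factor and peptide signalling were the next group. Abi3bp (ENSMUSG00000035258, mm9 chromosome 16 from 56477957 to 56690241, plus strand) encodes an extracellular matrix protein and had 281.6, 340.7 and 97.7 normalized counts in saline mice and 1170.7, 2385.8 and 2279.7 in ketamine mice. Adamts19, a secreted metalloprotease, had 6.71, 4.83 and 9.88 in saline mice and 57.8, 127.9 and 319.1 in ketamine mice. Ndst4, an enzyme that modifies heparan sulphate chains, had 31.6, 27 and 174.6 in saline mice and 859.4, 1105.4 and 368.9 in ketamine mice. Saline mouse 10 stood apart from the other saline mice for Abi3bp, where it was low, and for Ndst4, where it was high. Shisa3, which encodes an antagonist of Wnt and fibroblast growth factor receptors, had 9.58, 15.4 and 14.3 in saline mice and 97.9, 69.6 and 679.8 in ketamine mice. It is listed with the markers of mitral and tufted cells and shares 138 exon bases with Atp8a1 on the other strand, an abundant gene that averaged 8028.0 normalized counts.
Avp (ENSMUSG00000037727, mm9 chromosome 2 from 130406356 to 130408290, minus strand) encodes the precursor of vasopressin, a peptide made mainly in the hypothalamus. It had 0.96, 1.93 and 0 normalized counts in saline mice and 568.7, 10.3 and 23.6 in ketamine mice, which correspond to 1, 2 and 0 reads and to 581, 11 and 26 reads. Ketamine mouse 3 held nearly all of the reads. The ratio of ketamine mouse 5 to saline mouse 6 was 5.36, with a 95% exact interval for counting error alone of 1.17 to 49.8. The limit had selected this ratio, so the interval shows how few reads it rests on and is no test of a difference. Without ketamine mouse 3, Avp did not reach the mean of 50 and left the set.

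The remaining genes have less settled roles in neurons. Ms4a15, which encodes a membrane protein of the MS4A family, had 5.75, 4.83 and 1.1 normalized counts in saline mice and 86.1, 50.8 and 818.5 in ketamine mice, or 6, 5 and 1 reads against 88, 54 and 903. The ratio of its lowest ketamine to its highest saline mouse had a 95% exact counting interval of 3.81 to 25.1, which, as for Avp, is no test because the limit had selected the ratio. Ppm1j, a phosphatase of the PP2C family, had 7.66, 10.6 and 7.69 in saline mice and 43.1, 24.5 and 321.8 in ketamine mice. Ms4a15 and Ppm1j were both dominated by ketamine mouse 9, at 12 and 9.53 times the mean of mice 3 and 5. Ly6g6e, a gene of the Ly6 surface protein family, had 21.1, 29.9 and 19.8 in saline mice and 85.2, 123.2 and 329.9 in ketamine mice.
Klhl14, a BTB and kelch domain protein that binds torsinA, had 55.6, 55 and 54.9 normalized counts in saline mice and 157.6, 280.4 and 274.6 in ketamine mice. Its saline mice were the most even of the 25 genes, at 55.2 ± 0.35 (SD, n = 3). The noncoding RNA 4930426D05Rik overlaps Klhl14 on the opposite strand and shares 610 exon bases with it. It had 16.3, 20.3 and 19.8 in saline mice and 80.3, 203.2 and 197.6 in ketamine mice. Both genes were lowest in ketamine mouse 3 and nearly equal in mice 5 and 9, and reads of the shared bases cannot be assigned to either where the counting did not use strand. They were the only pair among the 25 genes that lay within 1 Mb of each other, and the 25 genes were spread over 13 chromosomes.

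The 3 genes just inside the 2-fold limit were Gpr149, Sp9 and Oxtr, at 2.026, 2.04 and 2.074. Just outside lay Trh, Accn4 and Serpina9, at 1.999, 1.991 and 1.981. Trh, the precursor of thyrotropin-releasing hormone, had 23.9, 24.1 and 32.9 normalized counts in saline mice and 666.6, 65.8 and 704.3 in ketamine mice. Accn4, which encodes an acid-sensing ion channel subunit, had 268.2, 266.4 and 239.4 against 1209.9, 633.1 and 533.9, and Serpina9 had 4.79, 4.83 and 11 against 467.9, 230.5 and 21.8. The limit thus divided genes whose values were much alike.

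The rule used the lowest ketamine mouse and, through the mean of 50, also the other mice, so 1 high ketamine mouse could bring a gene in. Adamts19, Ms4a15, Ppm1j, Scgn and Shisa3 reached that mean only with mouse 9, and Avp only with mouse 3. The spread among the ketamine mice and their order are therefore partly set by the rule and are given as a description. The highest ketamine mouse had between 1.16 and 54.9 times the value of the lowest, with a median of 2.87, and the range was 5-fold or more for 9 genes. The saline mice spanned a median of 1.62-fold for the 25 genes and 1.24-fold for all other genes with a mean of at least 50. The spread was larger among ketamine than among saline mice for 20 of the 25 genes. Avp is not among the 20, because a saline mouse at 0 left its saline spread without a finite value. Among other genes with a value above 0 in every mouse, the pattern was found in 67.3% of 13478. It was found in 65.1% of the 677 of them whose ketamine mice lay wholly above the saline mice.
Ketamine mouse 9 was the highest for 14 of the 25 genes (56%), mouse 3 for 6 and mouse 5 for 5. Mouse 9 was also the highest for 42.2% of the other genes with a mean of at least 50, and for 47.6% of the 679 others with ketamine wholly above saline. It was at least 3 times the mean of mice 3 and 5 for 9 genes, which were Ms4a15, Doc2g, Ppm1j, Scgn, Shisa3, Sp8, Lgr5, Adamts19 and Ly6g6e. For 12 genes mouse 9 lay between 0.5 and 2 times that mean. For 3 genes, Ndst4, Gpr149 and Avp, it was under 0.5 times, at 0.376, 0.148 and 0.0814. The 25 genes therefore did not share a single order of the ketamine mice.

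**Figure D3:**
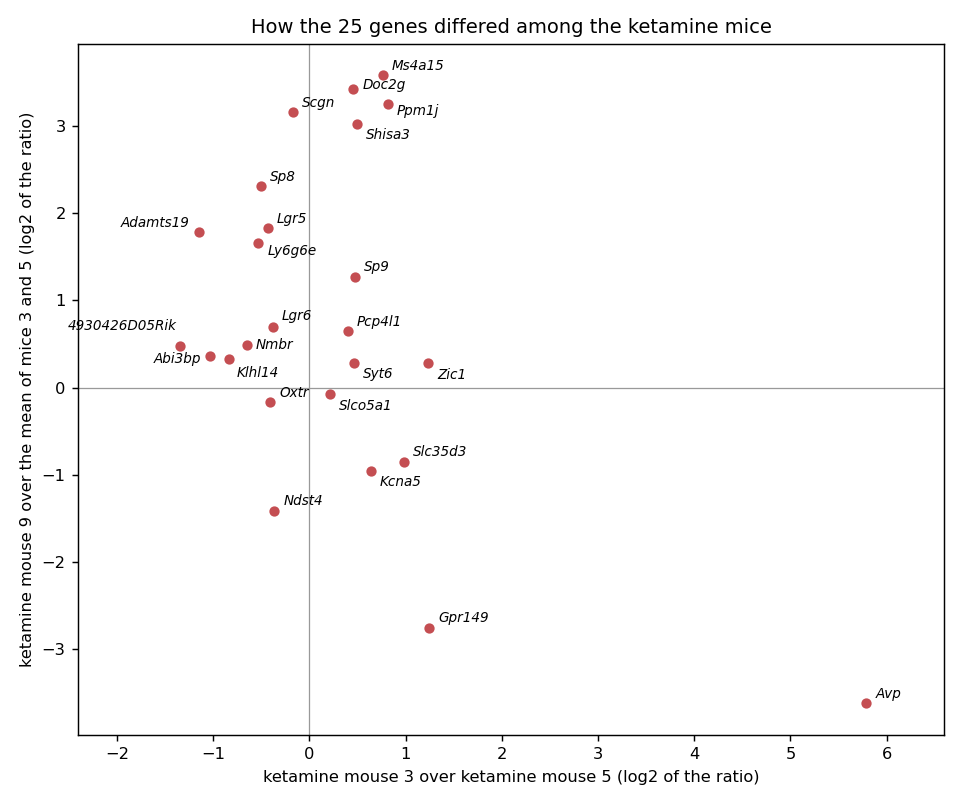
Each point is 1 of the 25 genes, with ketamine mouse 3 relative to mouse 5 on the x axis and mouse 9 relative to the mean of mice 3 and 5 on the y axis (log2 of the ratio). Ms4a15, Doc2g, Ppm1j, Scgn and Shisa3 lie highest, from 12 down to 8.12 times on the y axis, and Avp lies apart at the lower right.

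Markers of tissue near the PLc were examined in genes outside the 25. Of the 25 genes, 8 stand on a marker list and 17 on none. Scgn, Sp8 and Sp9 are on the list of olfactory bulb granule and periglomerular cells, Doc2g and Shisa3 on that of mitral and tufted cells, Zic1 on those of septum and thalamus, Sp8 also on that of cortical interneurons, Syt6 on that of cortical excitatory neurons, and Avp on that of neuropeptides. Over the 16127 genes that averaged at least 10 normalized counts, limma called 0 genes (0%) at an adjusted p under 0.05, and so did edgeR on the recovered reads (0%). DESeq2 on the same reads called 145 genes higher (0.899%) and 37 lower (0.229%), and 937 genes (5.81%) had an unadjusted p under 0.05 by limma. The ketamine mice lay wholly above the saline mice for 918 of the 16127 genes (5.69%) and wholly below for 751 (4.66%).

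Granule and periglomerular cell genes of the olfactory bulb were described without Dlx1, Dlx2, Dlx5, Dlx6os1 and Prokr2, which had met the same 2-fold limit. The remaining genes scored 1.33, 0.80 and 2.23 in ketamine mice 3, 5 and 9, whereas saline mice ranged from -0.07 to 0.11. Of these 13 genes, 12 were higher and 1 lower, with a median log2 change of 1.33 against -0.02 for all genes tested outside the 25. The groups did not overlap for 9 of the 13 on the high side and 1 on the low side, beside 5.69% and 4.66% of all genes tested. DESeq2 called 6 of them higher, beside 0.899% of all genes tested. By limma 10 had an unadjusted p under 0.05, beside 5.81% of all genes tested. With the 5 genes that met the limit, the median was 1.59 over 18 genes. Meis2, the most abundant of them, had 4973.4, 4691.4 and 1424.3 normalized counts in saline mice and 6956.8, 6704.8 and 9585.6 in ketamine mice (log2 change 1.25, adjusted p = 0.788 by limma). Synpr had 3509.8, 3781.3 and 2636.6 against 3973.2, 3446.9 and 8816.9, and its groups overlapped (log2 change 0.60, adjusted p = 0.999 by limma). Some lists share genes, so their scores are not independent. Meis2 is also on the striatal list. Trh, which lay just outside the limit at 1.999, is among the 13 genes and also on the layer 6b and neuropeptide lists.

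Mitral and tufted cell genes were described in the same way, without Tbx21, Eomes and Cdhr1, which had met the limit. The scores of the 10 remaining genes overlapped between the groups, at -0.56, -0.48 and 1.04 with saline and 1.23, 0.37 and 1.01 with ketamine. Of these 10 genes, 9 were higher and 1 lower, with a median log2 change of 0.81. For none of them did the groups separate, DESeq2 called 0 higher, and 0 had an unadjusted p under 0.05 by limma. With the 3 genes that met the limit, the median was 1.41 over 13 genes, and that value was 0.73 with a pseudocount of 5, 0.78 in genes with a mean of at least 50, and between 0.66 and 0.91 without saline mouse 6, ketamine mouse 9, saline mouse 1 or ketamine mouse 3. Tbr1, which cortical neurons also express, had 4649.7, 4743.5 and 2753.1 normalized counts in saline mice and 1954.8, 3472.3 and 3346.6 in ketamine mice (log2 change -0.47, adjusted p = 0.999 by limma), and Reln had a log2 change of 0.26 (adjusted p = 0.999 by limma). Lhx1, Lhx5 and Uncx, other genes of the list, were at 0 in at least 1 mouse. Olfactory ensheathing glia genes scored 0.64, 0.17 and 1.55 in the ketamine mice, whereas saline mice ranged from -0.17 to 0.12.

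Genes on the list of striatal medium spiny neurons divided the ketamine mice, and none of the 25 genes is on that list. Slc35d3 and Sp9, which also act in striatal neurons, are not listed there. Without Penk, which had met the limit, 32 of 33 such genes were higher and 1 lower, with a median log2 change of 1.25. The groups did not overlap for 8 of the 33 on the high side, beside 5.69% of all genes tested. DESeq2 called 7 higher, beside 0.899% of all genes tested. Ketamine mouse 9 lay above every saline mouse for 8 of the 33 genes, within the range of the saline mice for 15 and below it for 10. With Penk the median was 1.31, which became 0.75 without ketamine mouse 3 and 2.11 without ketamine mouse 9. Adcy5, adenylyl cyclase 5, had 4720.6, 4441.4 and 3855.6 normalized counts in saline mice and 15491.5, 9401.0 and 3231.4 in ketamine mice (log2 change 0.85, adjusted p = 0.999 by limma). Pde1b, a phosphodiesterase, had 4416.9, 4100.7 and 3518.4 against 12016.5, 7924.9 and 4224.0 (log2 change 0.89, adjusted p = 0.821 by limma).

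Neuroblast and neural progenitor genes scored from 0.86 to 1.02 with ketamine and -0.36, -0.29 and 0.65 with saline, with a median log2 change of 0.78 over 15 genes. Septum genes scored 1.75, 0.75 and 0.27 in the ketamine mice, and the saline mice ranged from -0.15 to 0.10. Cortical interneuron genes, among which Sp8 is listed, scored 0.48, 0.19 and 0.21 in the ketamine mice, and the saline mice ranged from -0.05 to 0.04. They went both ways: of 25 genes tested, 12 were higher and 13 lower, with a median log2 change of -0.03. The groups did not overlap for 8 on the high side and 4 on the low side, beside 5.69% and 4.66% of all genes tested. Thalamus genes had a median of 0.14. Neuropeptide genes, the list of Avp, had a median of 0.23 over 34 other genes, and their scores of 1.19, 0.31 and 1.06 in the ketamine mice overlapped those of the saline mice, which reached 0.32. Meningeal genes scored 1.09 in ketamine mouse 9, and choroid plexus genes 1.06 in ketamine mouse 3 and 1.79 in saline mouse 10. Astrocyte, microglia and endothelial genes had medians of 0.03, -0.04 and -0.08. The part that these marker genes have in the values of the 25 genes was not tested.

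**Figure D4:**
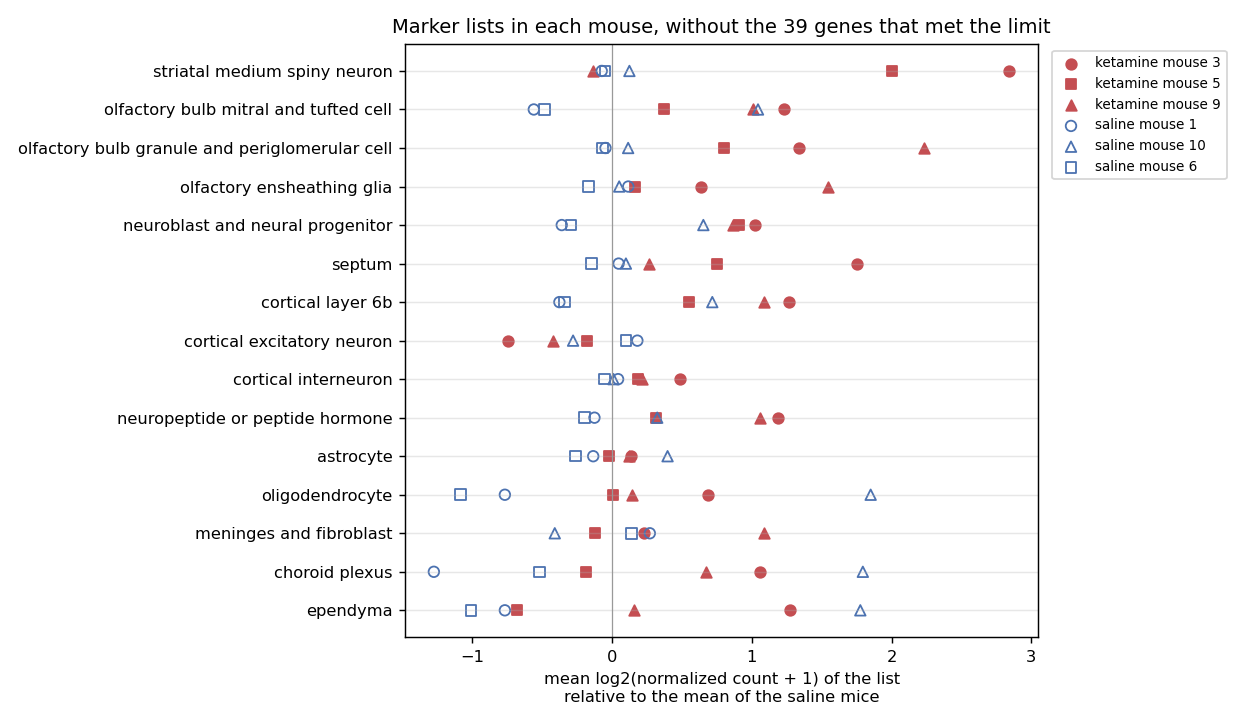
Each line is a list of marker genes without the 39 genes that met the limit, and each symbol is 1 mouse: the mean log2(normalized count + 1) of the list after subtraction of the saline mean. Ketamine mice lie wholly above saline mice for granule and periglomerular cell, ensheathing glia, neuroblast, septum and cortical interneuron genes and overlap them in the other lists; ketamine mouse 9 scores -0.13 for striatal genes, and saline mouse 10 scores 1.85 for oligodendrocyte genes.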

How the data were processed

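Total RNA of the PLc was sequenced in 3 saline and 3 ketamine mice. The authors aligned reads to mm9 with TopHat2 2.0.11 and counted them with HTSeq; CASAVA and DESeq2 are also named in the submitters' processing notes. The annotation and strand setting are not given in the sources used here. The deposited table gives 1 signal value for every gene and mouse, the HTSeq count after division by the size factor of that library. Between 99.6% and 99.9% of values were whole multiples of 1 step (tolerance 0.01 normalized counts), which gave the reads. Coordinates came from GENCODE M1 (mm9), which holds 37205 of the 37620 identifiers.

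Log2(normalized count + 1) was compared with limma 3.58.1 in R 4.3.3 (trend in the prior variance, two-sided, Benjamini-Hochberg adjustment, threshold 0.05) in 16127 genes with a mean of at least 10. Recovered reads were compared with edgeR 4.0.16 and DESeq2 1.42.0. All were run on simulated data with the same small scatter for every gene and no outlying mouse. That check does not cover the spread between these mice or the difference between the methods here. The added 1 makes log2 changes of sparse genes too small. The members and the gene lists were chosen with earlier results of these data known. Genes named are all 25 members, the 3 nearest below the limit, and the 2 most abundant others of each striatal and olfactory bulb list; any other gene was chosen after its values were seen. Of the genes on 23 lists, 4 were not matched. All columns were used.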

Additional observations from a re-analysis of the deposited data

How the results depend on the processing

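The 25 genes were all kept when size factors were recomputed (27 genes), with upper-quartile scaling (28) and with library totals (30). The count was 50 with a mean of at least 10, 21 with a mean of at least 100, 64 with a 1.5-fold limit, 11 with a 3-fold limit and 23 with 5 added to each value, which lost Gpr149 and Ppm1j. With each mouse left out in turn it lay between 28 and 87, and it was 87 without saline mouse 10, 63 without ketamine mouse 9 and 46 without ketamine mouse 5, since fewer mice have to be separated. Without ketamine mouse 9, 20 of the 25 genes remained, and Adamts19, Ms4a15, Ppm1j, Scgn and Shisa3 fell under the mean of 50. The log2 ratio of the ketamine to the saline mean was above 0 in all 225 recomputed values of the 25 genes. The 2-fold limit made this all but certain, so it is no test of the genes. The lowest value was 1.13 for Oxtr without ketamine mouse 5, and 10 of the values moved by more than 1 SD.

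limma called 0 genes and between 0 and 1 with each mouse left out, and DESeq2 called 182. The median log2 change of mitral and tufted cell genes was 1.41, with 0.73 at a pseudocount of 5 and a range of 0.66 to 1.54 with each mouse left out, and the cause was not tested. Leaving out the genes that had met the 2-fold limit, an alternative chosen after seeing the data, gave medians of 0.81 for this list, 1.33 for granule and periglomerular cell genes and 1.25 for striatal genes. The medians of these last lists kept their direction under every alternative run. No paired analysis was possible because the mouse numbers differ between the groups. With 3 mice in each group and saline values under 20 normalized counts for 8 genes, the size of a difference is known only roughly.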
